A study of Homo sapiens with 6 samples.

Results

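The 44 genes described here are grouped under DNA double-strand break and crosslink repair. They encode factors of homologous recombination, the Fanconi anemia pathway and end joining, and also mismatch repair factors and checkpoint kinases. They were chosen by name, from a list of 44 symbols, and all 44 were found among the 58174 genes of the table. The series asks how the mRNAs of glioblastoma cells change when the RNA-binding protein Musashi 1 (MSI1) is depleted. KNS42 is an established line of cells from a glioblastoma of childhood. It was grown in DMEM with 10% FBS and transfected with a control siRNA (siC, 3 libraries) or with a pool of siRNAs against MSI1 (siMSI1, 3 libraries). RNA was collected 72 h after transfection in both groups and sequenced as strand-specific poly(A) libraries, with between 13087025 and 18024080 reads on genes per library. All 6 libraries are of 1 cell line, and no source states that the 3 libraries of a group are separate cultures, so all p-values measure the spread between these libraries, which may be technical.

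Levels are FPKM, the fragments of a gene per kilobase of its length, scaled to the reads of the library. The MSI1 mRNA itself stood at 63.7, 61.9 and 66.9 FPKM in siC, and in siMSI1 at 12.1, 12.3 and 11.2 FPKM, which is 18.5% of the siC mean and a log2 fold change of -2.43. The glial and progenitor markers VIM (1035 FPKM in siC), SOX2 (301) and NES (69.2) were high, whereas S100B was listed at 0 in every library. GFAP, FABP7, CD44 and SYN1 changed. GFAP rose from a mean of 1.63 to 4.61 FPKM, whereas FABP7 (36.1 to 16.6), CD44 (84.8 to 61.9) and the neuronal marker SYN1 (2.26 to 1.19) fell. Of the 13 markers of neurons, immune, endothelial and epithelial cells, only SYN1, SYT1 and KRT8 passed the filter on low values, and the other 10 were at or below 0.329 FPKM in every library.

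A double-strand break can be mended in different ways. Homologous recombination copies the lost stretch from the sister chromatid and therefore works mostly in S and G2 phase, whereas end joining ligates the ends directly in all phases. The Fanconi anemia proteins unhook crosslinks between the strands at stalled replication forks and hand the resulting break to homologous recombination, and many genes of both pathways are known targets of the E2F factors that switch on replication genes. Radiation, which is used against glioblastoma beside temozolomide, causes double-strand breaks.

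Upon MSI1 knockdown, 9 of the 44 repair genes fell, namely BRIP1, FANCC, XRCC2, EXO1, FANCA, USP1, FANCD2, RMI2 and MSH6, and their mean siMSI1 levels were 44.4% to 74.5% of siC. None rose. Of the 44 genes, 41 passed the filter of a mean of 0.5 FPKM, so the 9 genes are 22.0% of those tested, at an adjusted p of at most 0.01 (limma, Benjamini-Hochberg over 15069 genes). Over all genes tested, 5.83% were called lower and 5.15% higher. Another 32 repair genes were tested and did not pass. At an unadjusted p under 0.05, 21 repair genes were lower and 2, ATR and TP53BP1, were higher, beside 19.3% lower and 19.0% higher of all genes tested. voom, the form of limma for counts, was also run on the reads recovered from FPKM and called 15 repair genes lower and 1, TP53BP1, higher, beside 10.0% and 8.67% of all genes tested. The median log2 fold change of the 41 genes was -0.26, beside a median of 0.00 over all genes tested, and 33 of the 41 values were below 0. In 24 repair genes every siMSI1 value lay below every siC value, which was so for 21.5% of all genes tested, and in 2 (ATR and TP53BP1) every siMSI1 value lay above, which was so for 21.4%. When 1 library at a time was left out, between 2 and 8 repair genes were lower, beside 1.8% to 6.15% of all genes tested. Without siC replicate 1 only BRIP1 and EXO1 remained, and 1.8% of all genes tested were lower.

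**Figure D1:**
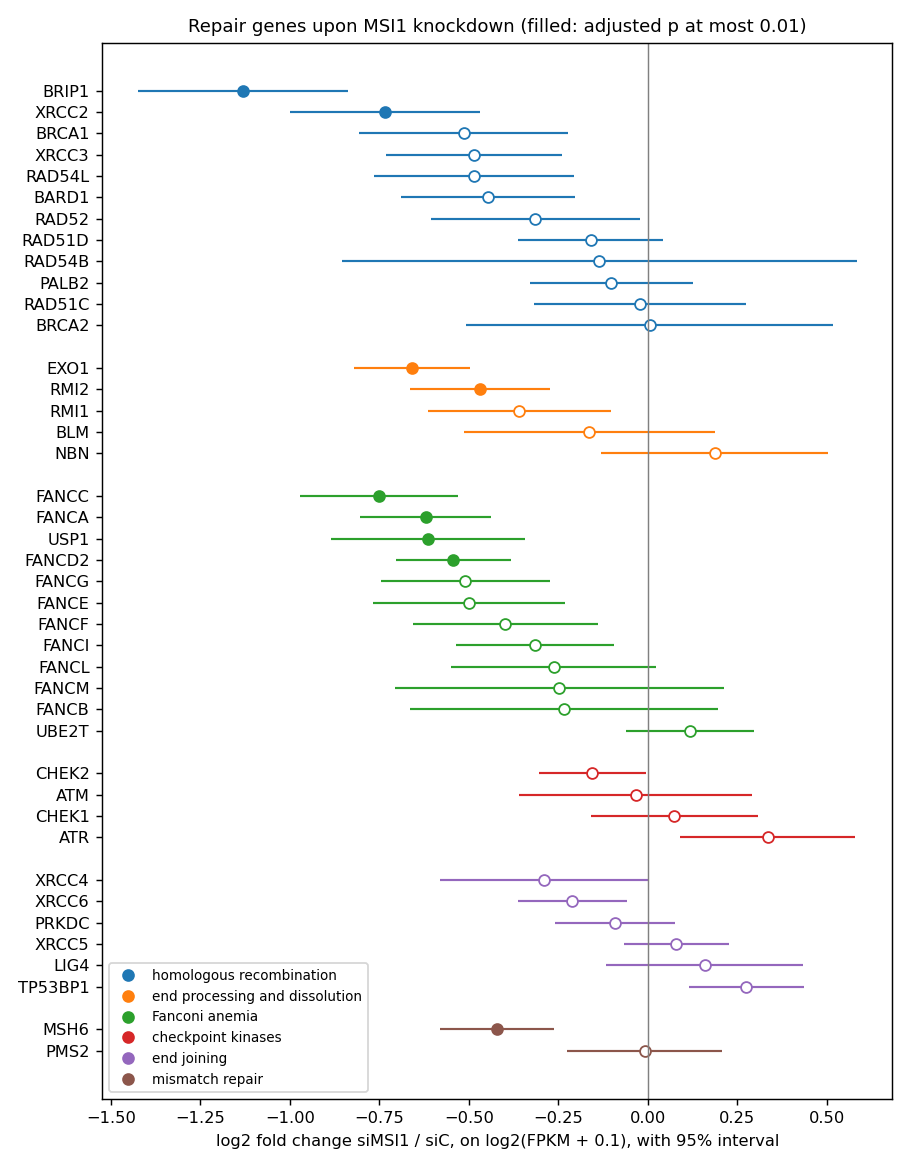
Log2 fold change of siMSI1 over siC (x axis, on log2(FPKM + 0.1)) for each of the 41 repair genes tested, with its 95% interval from limma, sorted by role; filled points are the 9 genes at an adjusted p of at most 0.01. All 9 filled points lie to the left of 0, between -1.13 (BRIP1) and -0.42 (MSH6), and none lies among the checkpoint kinases or end joining genes.

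The lower level of the repair genes was seen in each siMSI1 library. Relative to the siC mean, the median repair gene stood at -0.29, -0.20 and -0.36 on the log2 scale in siMSI1 replicates 1, 2 and 3, and at -0.01, 0.06 and -0.07 in siC replicates 1, 2 and 3. The corresponding medians over all genes tested lay between 0.00 and 0.01 in all 6 libraries. siMSI1 replicate 3 was thus the lowest and siC replicate 2 the highest for these genes.

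**Figure D2:**
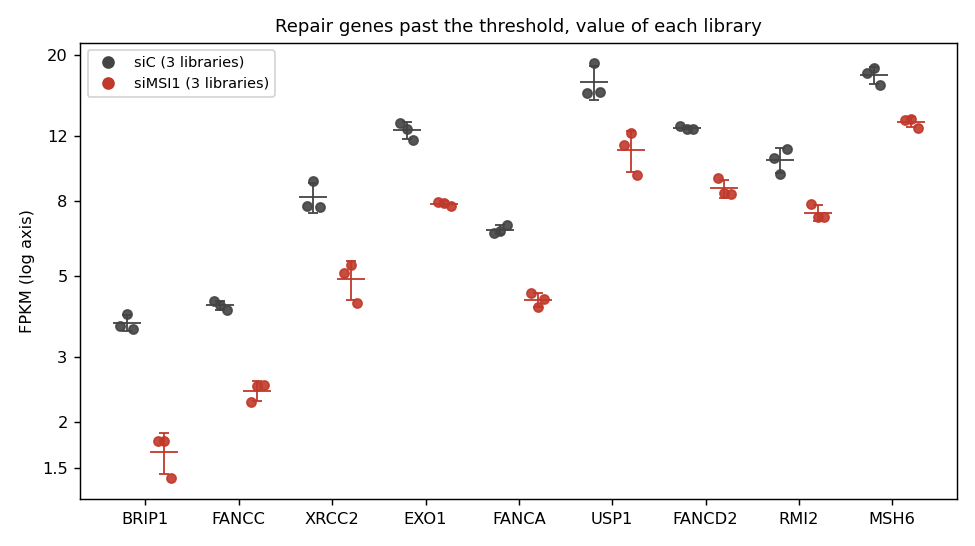
FPKM (y axis, log scale) of the 9 repair genes that fell, with 1 point per library, 3 siC and 3 siMSI1; the horizontal mark and bar give the mean and SD. For each of the 9 genes all 3 siMSI1 points lie below all 3 siC points, with the largest gap for BRIP1.

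Promoter sequences of the repair genes were read as a description beside the measurement. RefSeq promoters (GRCh38.p14, 250 bases before to 50 after each listed start site) were at hand for 38 of the 44 genes, without RAD54B, NBN, RMI2, FANCI, XRCC5 and PRKDC. They were searched on both strands for 4 words that E2F factors are known to bind: TTTCCCGC, TTTCGCGC, TTTGCCGC and TTTGGCGC. At least 1 of these words was found in 6 of the 8 genes that fell and have a promoter entry (75.0%), in 3 of the 27 other repair genes tested (11.1%), in 78 of 635 genes called lower (12.3%), in 639 of 9157 genes tested (6.98%) and in 3.99% of all 27305 genes of the promoter table. The 30 bases around each match in the 6 genes are given from 5′ to 3′ on the strand of the gene, with the word or its reverse complement in capitals.
EXO1, chr1:241848197-241848226 (+): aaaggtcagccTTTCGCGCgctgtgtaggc
MSH6, chr2:47783137-47783166 (+): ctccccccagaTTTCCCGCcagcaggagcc
FANCD2, chr3:10026424-10026453 (+): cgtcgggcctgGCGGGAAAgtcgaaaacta
XRCC2, chr7:152676102-152676131 (-): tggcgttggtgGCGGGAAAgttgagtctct
FANCC, chr9:95317737-95317766 (-): ttcgtcggaatTTTCCCGCgacgccgcggg
FANCC, chr9:95317863-95317892 (-): ccggggcttccGCGCGAAAccgggaacact
FANCA, chr16:89816801-89816830 (-): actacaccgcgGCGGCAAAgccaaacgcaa

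The matches of EXO1, MSH6, FANCD2 and XRCC2 began at positions 4, 3, -2 and 21, counted along the gene with the first transcribed base as 0. The match of FANCA and 1 of those of FANCC began at -172, and the other match of FANCC at -46. BRIP1 (chr17:61679139-61863559, minus strand) and USP1 (chr1:62436297-62451804, plus strand), which fell too, held none of these words in the window, and RMI2 (chr16:11249619-11381662, plus strand) has no promoter entry. The 3 genes with a match that did not pass the test were RMI1, XRCC6 and PMS2. By role, these words stood in 1 of 12 recombination promoters (8.33%), 3 of 11 of Fanconi anemia and 2 of 4 of end processing. They stood in 1 of 5 promoters of end joining, 2 of 2 of mismatch repair and 0 of 4 of checkpoint kinases. BRCA1, BARD1, XRCC3, RAD54L, FANCE and FANCG, which voom called lower too, held none of these words. The contrast of 75.0% with 11.1% thus depends on which fit made the calls. The words were chosen with results of these data known, no test was made, and a match is a run of letters and not a measured binding site. The cell cycle element TTTGAA was found in 3 of the 8 genes that fell (BRIP1, FANCC and USP1), in 2 of the 27 others (UBE2T and ATM), in 13.7% of the genes tested and in 18.2% of all genes, and CCAAT in 4 of 8, 17 of 27, 44.2% and 39.7%, in the same order. In the 2 gene lists used for comparison, the E2F words stood in 20 of 43 promoters of DNA replication genes (46.5%) and in 4 of 45 of mitosis genes (8.89%), and TTTGAA in 2 and 30 of these.

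In homologous recombination, 2 of 12 genes tested fell and none rose, and the median log2 fold change was -0.38. voom called 6 of the 12 lower, with BRCA1, BARD1, XRCC3 and RAD54L in addition. BRIP1, the helicase that binds BRCA1, stood at 3.63, 3.93 and 3.58 FPKM in siC, and in siMSI1 at 1.77, 1.78 and 1.40 FPKM. The groups were far apart, and the log2 fold change was -1.13 (SE 0.126, 95% interval -1.42 to -0.84, adjusted p = 0.00100). Of the 15069 genes tested, 266 had a larger fall. XRCC2, which helps to assemble the filament that searches for the matching strand, stood at 7.76, 9.07 and 7.68 FPKM in siC, and in siMSI1 at 5.09, 5.34 and 4.22 FPKM. This is a log2 fold change of -0.73 (SE 0.115, adjusted p = 0.00384), and the call was lost when any siC library or siMSI1 replicate 1 was left out.

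The 10 other recombination genes did not pass the test. Every siMSI1 value lay below every siC value in 8 of the 12 recombination genes and in 21.5% of all genes tested. BRCA1, the scaffold that directs breaks to recombination, stood at 5.51, 6.66 and 5.49 FPKM in siC, and in siMSI1 at 4.34, 4.46 and 3.50 FPKM (log2 fold change -0.51, adjusted p = 0.0220). The groups did not overlap for BRCA1, nor for its ubiquitin ligase partner BARD1 (-0.45), the filament assembly factors XRCC3 (-0.49) and RAD51D (-0.16), the translocase RAD54L (-0.48) and the annealing factor RAD52 (-0.31), and the siMSI1 values were the lower ones in each. By contrast, the groups overlapped for RAD51C (-0.02), another filament assembly factor, for PALB2 (-0.10), which links BRCA1 to BRCA2, and for BRCA2 (0.01), which loads the filament onto single-stranded DNA. BRCA2 was low, between 0.635 and 0.879 FPKM, and its 95% interval of -0.51 to 0.52 does not separate a fall like that of BRCA1 from no change. RAD54B was lower still (0.367 to 0.646 FPKM, log2 fold change -0.14, 95% interval -0.86 to 0.58), with 66.0% of its annotated exon bases shared with FSBP on the same strand. XRCC3 shares 76.7% of its exon bases with KLC1 on the other strand (log2 fold change 0.18, adjusted p = 0.259). RAD51B was below the filter, at 0.455, 0.495 and 0.586 FPKM in siC and 0.363, 0.592 and 0.317 FPKM in siMSI1.

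Among the factors that process ends and dissolve joint molecules, 2 of 5 genes tested fell, none rose, and the median was -0.36. EXO1, the exonuclease that lengthens the single-stranded overhang, stood at 13.1, 12.6 and 11.7 FPKM in siC, and in siMSI1 at 7.95, 7.87 and 7.72 FPKM. The libraries of a group lay close together, and the log2 fold change was -0.66 (SE 0.0701, 95% interval -0.82 to -0.50, adjusted p = 0.000836). RMI2, a subunit of the complex in which the BLM helicase dissolves crossed strands, stood at 10.5, 9.43 and 11.1 FPKM in siC, and in siMSI1 at 7.84, 7.20 and 7.22 FPKM. Its log2 fold change was -0.47 (SE 0.0844, adjusted p = 0.00666), and of the 6 fits that left out 1 library its call held only without siC replicate 2.

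The other subunits of this complex were at -0.36 (RMI1, no overlap between the groups) and -0.16 (BLM, overlapping) and did not pass. NBN, which recruits ATM to breaks, was at 0.19 with overlapping groups. RAD50, the partner of NBN and MRE11, was below the filter, with 0.294, 0.260 and 0.270 FPKM in siC and 0.292, 0.180 and 0.164 FPKM in siMSI1. Here 76.9% of the annotated exon bases are shared with the gene AC116366.3 on the same strand, so that the level of RAD50 in this table is uncertain.

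The Fanconi anemia genes held the largest number of calls, with 4 of 12 lower (6 with voom), none higher and a median of -0.45, and 11 of the 12 log2 fold changes were below 0. Between 0 and 4 of them were lower when 1 library was left out, with 0 without siC replicate 1. In that fit 1.8% of all genes tested were lower. FANCC, a subunit of the core complex, stood at 4.26, 4.15 and 4.04 FPKM in siC, and in siMSI1 at 2.26, 2.51 and 2.52 FPKM. This is a log2 fold change of -0.75 (SE 0.0954, 95% interval -0.97 to -0.53, adjusted p = 0.00159). FANCA, also of the core complex, stood at 6.51, 6.60 and 6.88 FPKM in siC, and in siMSI1 at 4.48, 4.10 and 4.33 FPKM, a log2 fold change of -0.62 (SE 0.0790, adjusted p = 0.00162). The groups were well separated in both genes. FANCA shares 19.6% of its exon bases with ZNF276 on the other strand, which was at 0.05 (adjusted p = 0.795).

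FANCD2, which the core complex marks with ubiquitin at a crosslink, stood at 12.8, 12.6 and 12.5 FPKM in siC, and in siMSI1 at 9.20, 8.40 and 8.32 FPKM. Its log2 fold change was -0.54 (SE 0.0696, adjusted p = 0.00165). FANCA, FANCC and FANCD2 kept their calls under all alternatives except without siC replicate 1, where the adjusted p was 0.0114, 0.0130 and 0.0136. USP1, the enzyme that removes this ubiquitin again, stood at 15.7, 18.9 and 15.8 FPKM in siC, and in siMSI1 at 11.3, 12.2 and 9.41 FPKM. The groups did not overlap, its log2 fold change was -0.61 (SE 0.117, adjusted p = 0.00840), and leaving out any 1 of the 6 libraries ended its call.

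FANCG, another core subunit, missed the threshold by little, with 18.0, 18.0 and 20.8 FPKM in siC, 12.7, 12.2 and 15.0 FPKM in siMSI1, a log2 fold change of -0.51 and an adjusted p of 0.0101. It was called in 7 of the 16 alternatives, among them an added value of 0.01, a filter of 1 FPKM and leaving out siMSI1 replicate 3. The core subunits FANCE (-0.50) and FANCF (-0.40), the FANCD2 partner FANCI (-0.32) and the translocase FANCM (-0.25) did not pass. The adjusted p was 0.0179 for FANCE, 0.0358 for FANCF and 0.0458 for FANCI. For FANCM it was 0.406 (95% interval -0.71 to 0.21). In these 4 genes every siMSI1 value lay below every siC value. This was so for 9 of the 12 Fanconi anemia genes and for 21.5% of all genes tested. FANCL (-0.26), the ubiquitin ligase of the core, and FANCB (-0.23) overlapped. UBE2T, the ubiquitin-conjugating enzyme that works with FANCL, was the most abundant Fanconi anemia gene per length and the only one above 0. Its levels of 72.0, 77.2 and 68.9 FPKM in siC and 77.7, 85.0 and 74.1 FPKM in siMSI1 overlapped, with a log2 fold change of 0.12 (95% interval -0.06 to 0.30).

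None of the 4 checkpoint kinases passed the test or was called by voom, and their median was 0.02. With a replicate block added to voom, ATR was called higher. At an unadjusted p under 0.05, ATR was higher and CHEK2 lower. CHEK1, which ATR activates to hold the cell cycle, was the most abundant, with 15.0, 17.5 and 14.6 FPKM in siC and 16.9, 17.9 and 14.8 FPKM in siMSI1. The groups overlapped, and the log2 fold change was 0.07 (95% interval -0.16 to 0.31). ATR itself, the kinase that senses single-stranded DNA at stalled forks, stood at 3.73, 4.14 and 3.39 FPKM in siC, and in siMSI1 at 5.03, 4.83 and 4.41 FPKM. All 3 siMSI1 values were above siC, but the log2 fold change of 0.34 did not pass (adjusted p = 0.0526). ATM, the kinase for double-strand breaks, was at -0.03 (95% interval -0.36 to 0.29) with overlapping groups, and CHEK2, its effector, at -0.15 without overlap.

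In end joining, 0 of 6 genes tested passed the test in either direction, and the median was -0.01. At an unadjusted p under 0.05, TP53BP1 was higher and XRCC6 lower, and voom on the recovered reads called TP53BP1 alone, or TP53BP1 higher and XRCC6 lower with a replicate block. XRCC6, a subunit of the Ku ring that binds broken ends, was the most abundant of all 44 genes, with 145, 144 and 157 FPKM in siC and 124, 127 and 133 FPKM in siMSI1. Its log2 fold change was -0.21 (95% interval -0.36 to -0.06, adjusted p = 0.0511), and the groups did not overlap. XRCC5, the other Ku subunit, was at 0.08 with overlapping groups. TP53BP1, which protects ends from resection and so steers breaks to end joining, stood at 9.20, 9.19 and 8.79 FPKM in siC, and in siMSI1 at 11.5, 11.0 and 10.5 FPKM. All siMSI1 values were the higher ones, with a log2 fold change of 0.28 (adjusted p = 0.0240), and 28.8% of its exon bases are shared with TUBGCP4 on the other strand (0.16, adjusted p = 0.293). The kinase PRKDC (-0.09), the ligase LIG4 (0.16) and its cofactor XRCC4 (-0.29) did not pass. NHEJ1 had 8 reads or fewer in each library and shares 19.5% of its exon bases with AC068946.1 on the same strand, so that its level is uncertain too.

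Of the 2 mismatch repair genes, MSH6, which recognizes mispaired bases, fell. It stood at 17.8, 18.3 and 16.5 FPKM in siC, and in siMSI1 at 13.3, 13.3 and 12.6 FPKM, without overlap. The log2 fold change was -0.42 (SE 0.0684, adjusted p = 0.00447), and the call was lost without siC replicate 1 or 2 or siMSI1 replicate 1 or 2. FBXO11 on the other strand shares 22.7% of its exon bases and was at -0.13 (adjusted p = 0.363). PMS2, which cuts the strand to be corrected, was at -0.01 (95% interval -0.23 to 0.21).

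Because many of these proteins work as pairs, the FPKM of a gene was divided by that of a gene it acts with, for 16 pairs that were chosen with the results known. No pair passed a two-sided exact permutation test, which cannot go below p = 0.1 with 3 against 3 libraries (smallest adjusted p = 0.178), so the ratios are given as a description. The 2 groups overlapped in 7 pairs. How often the ratios of other gene pairs do not overlap was not computed. Of single genes tested, 21.5% were lower and 21.4% higher in siMSI1 without overlap. The ratio of BRIP1 to BRCA1 was 0.659, 0.590 and 0.651 in siC and 0.407, 0.398 and 0.401 in siMSI1, so that the ratio was lower in every siMSI1 library. The ratio of BARD1 to BRCA1 was 1.37 ± 0.0724 in siC and 1.44 ± 0.0617 in siMSI1 (SD, n = 3) and overlapped. Ratios were also lower in all siMSI1 libraries for XRCC2 to RAD51D (1.99 to 1.33, as group means), XRCC3 to RAD51C (1.12 to 0.820), FANCD2 to FANCI (1.02 to 0.868), CHEK1 to ATR (4.18 to 3.47), XRCC6 to XRCC5 (2.13 to 1.74) and MSH6 to PMS2 (1.87 to 1.40). They were higher in all siMSI1 libraries for UBE2T to FANCL (4.55 to 5.95) and LIG4 to XRCC4 (2.02 to 2.77).

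**Figure D3:**
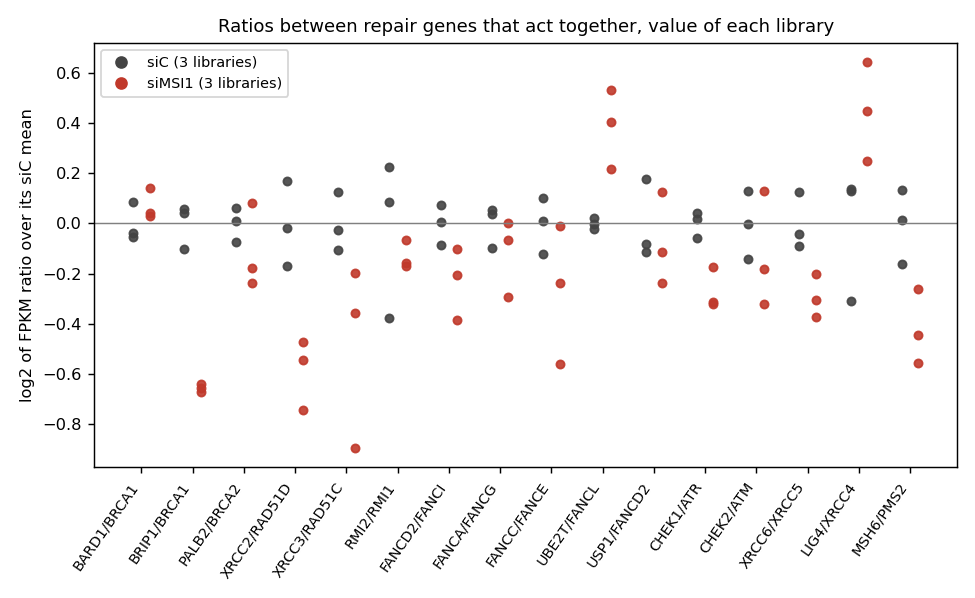
Log2 of the FPKM ratio of 16 pairs of repair genes over the mean ratio in siC (y axis), with 1 point per library, 3 siC and 3 siMSI1. BRIP1/BRCA1 shows the tightest siMSI1 points and a gap to siC, whereas the points of 7 pairs, such as BARD1/BRCA1, overlap.

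Of 88 further repair genes listed for the same roles, 87 were in the table and 80 were tested, of which 12 (15.0%) fell and none rose, with a median of -0.18. At an unadjusted p under 0.05, where 19.3% of all genes tested were lower and 19.0% higher, 33 were lower and 6 higher, and voom on the recovered reads called 21 in either direction. When 1 library was left out, 3 to 11 were called. Among the genes that fell were the histone variant gene H2AFX that marks breaks (-0.75), the ubiquitin ligase RFWD3 (-0.74) and the ATR pathway mediator CLSPN (-0.69). By role, 3 of 23 recombination genes, 3 of 17 Fanconi anemia genes and 5 of 15 checkpoint genes fell. No gene passed among 10 for end processing (median -0.28, with 5 lower at an unadjusted p under 0.05 and 2 with voom) and 10 for end joining (median 0.05, with 2 lower and 2 higher at an unadjusted p under 0.05 and 2 lower with voom).

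Other gene lists moved at the same time. Of 47 DNA replication genes, 20 (42.6%) fell, including the GINS subunit GINS2 (-1.29), the licensing factor CDC6 (-0.95) and the chromatin assembly subunit CHAF1B (-0.87), and 1, the polymerase subunit POLD4 (0.71), rose. The median was -0.40. Of 53 mitosis genes, 7 (13.2%) fell, with KNTC1 (-0.81), CENPI (-0.64) and CDK1 (-0.50) in front, none rose (1 at an unadjusted p under 0.05, 0 with voom), and the median was -0.20. Leaving out 1 library left 8 to 21 replication genes and 0 to 7 mitosis genes lower, with 8 and 0 without siC replicate 1. POLD4 was called higher in only 2 of these 6 fits, without siC replicate 3 and without siMSI1 replicate 3. POLD4 here and NTHL1 of excision repair are named after their values were seen, as the only genes of their lists that rose. Whether the repair genes fell with the share of cells in S phase was not tested, since in bulk RNA fewer cells of a kind and less of an mRNA per cell cannot be told apart.

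Excision repair, which mends single damaged bases and bulky adducts, had 3 genes lower and 1 higher of 35 tested and a median of -0.02. The glycosylases TDG (-0.86) and SMUG1 (-0.63) and the ligase LIG3 (-0.62) fell and the glycosylase NTHL1 (0.47) rose. When 1 library was left out, 0 to 3 genes of the list were lower, with 3 only without siMSI1 replicate 3. A gene of the list was higher only without siC replicate 3, and without siC replicate 1 none was called. Among 23 targets of p53, 7 rose and none fell (3 at an unadjusted p under 0.05, 2 with voom), with a median of 0.25. They included BTG2 (1.51) and CDKN1A (1.08), which restrain the cell cycle, and BBC3 (1.45), which promotes apoptosis. Between 4 and 7 of them were called when 1 library was left out, the 4 without siMSI1 replicate 1.

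**Figure D4:**
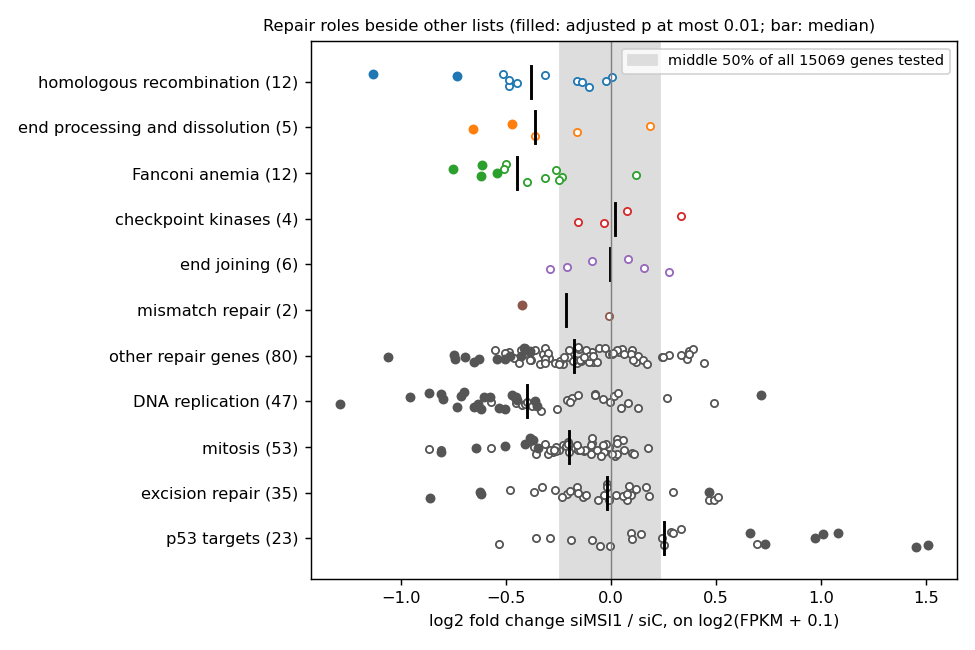
Log2 fold change of siMSI1 over siC (x axis) of each gene tested in the 6 roles of the repair genes, in the 80 further repair genes and in 4 lists for comparison, with the number of genes in brackets; filled points passed the test, black bars are medians and the grey band holds the middle of all genes tested (-0.24 to 0.23). The medians of recombination, end processing, Fanconi anemia and DNA replication lie left of the band, those of the other lists inside it or, for the p53 targets, at 0.25.

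The calls were compared across 16 alternatives. BRIP1 and EXO1 were called in all 16, and FANCA, FANCC and FANCD2 in 15. The others were called less often, with 10 each for XRCC2 and MSH6, 9 for RMI2 and 8 for USP1. All 9 were called by voom on the recovered reads. The sign of the log2 fold change was the same in every fit for 36 of the 41 genes, and the 5 others (BRCA2, RAD51C, RAD54B, ATM and PMS2) had log2 fold changes between -0.14 and 0.01.

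**Figure D5:**
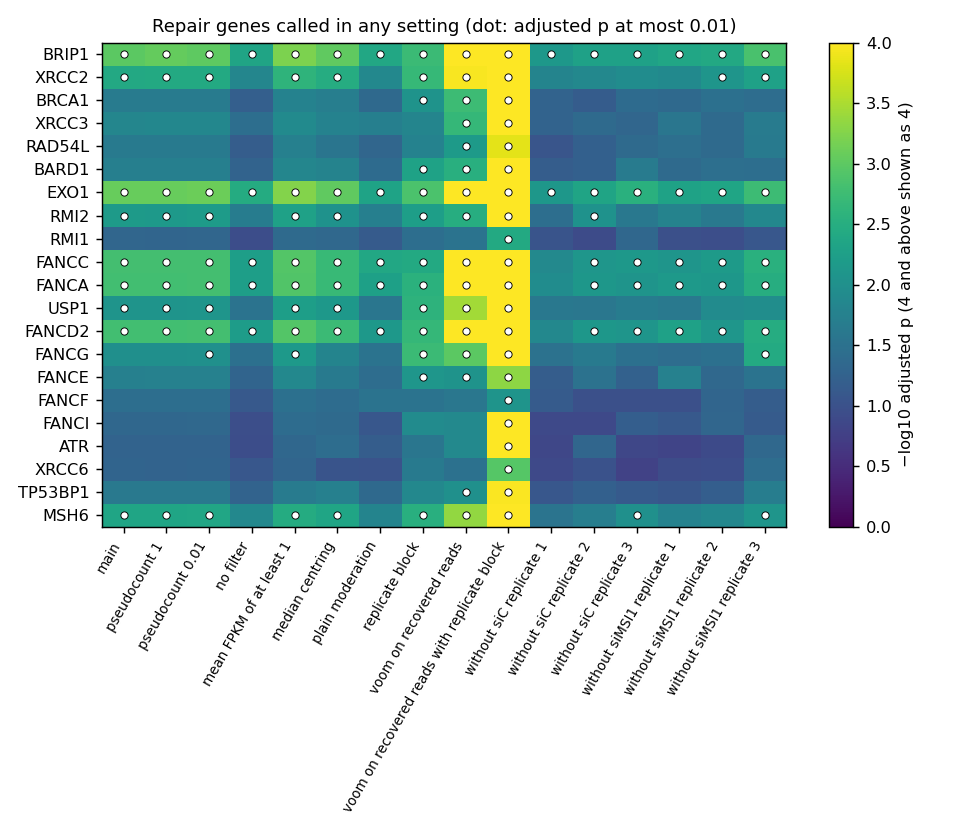
Adjusted p (colour, as −log10, with 4 and above drawn as 4) of the 21 repair genes that passed the threshold in the reported fit or in an alternative, across 16 settings; dots mark an adjusted p of at most 0.01. BRIP1 and EXO1 have a dot in every column, and without siC replicate 1 they are the only ones.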

How the data were processed

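The authors clipped reads with Cutadapt 1.14, aligned them to hg38 with HISAT2 2.1.0 and counted reads per gene with featureCounts 1.5.3 on an Ensembl annotation (versions from the submitters' processing notes). The deposited table gives FPKM per gene and library and the gene length in bases, beside their own log2 fold change, p-value and FDR from edgeR 3.18.1, which were not used. Whether strand was used in counting is not given in the sources used here, so genes that share exons are uncertain. All 6 value columns belong to a mapped library.

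limma 3.58.1 in R 4.3.3 (lmFit, eBayes with trend and robust) was fitted without a block to log2(FPKM + 0.1). The fit covered 15069 genes whose mean reached 0.5 FPKM. It was also run on simulated reads, whose spread beyond counting error was set the same for every gene. That run does not show how often calls are right in these data. Log2 fold changes are on this scale, which understates changes of low genes. Adjustment was by Benjamini-Hochberg over all genes tested, and the threshold was 0.01, as in the study.

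Reads were recovered from FPKM and length, and 100% of the values above 0 came out whole within 0.01 reads. A floor of 3 reads equals 0.0829 to 0.114 FPKM at a length of 2 kb and covers counting error only. No 2 libraries of a group agreed within sampling noise.

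The repair genes, further lists, roles and promoter words were chosen with earlier results of these data known. Genes that passed are named with all libraries, every other repair gene with its value, and at most 4 or 3 genes of other lists by size of change. Some genes of these lists are counted but not reported here by name. Exon overlaps come from GENCODE release 44, in which all 44 genes were found. That release is not the annotation on which the reads were counted, so the shares of exon bases need not hold for the counted exons. Alternatives were other added values, filters, centring, variance moderation and threshold, voom on recovered reads, a replicate block and leaving out each library. Summaries and figures were made in Python 3.11.15 with pandas 2.3.3 and matplotlib 3.10.9.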

Additional observations from a re-analysis of the deposited data

How the results depend on the processing

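No called repair gene changed direction under the alternatives, and 5 repair genes that did not pass (BRCA2, RAD51C, RAD54B, ATM and PMS2) changed sign in some of them without being called. The number of genes changed, 1655 in the reported fit, was 792 without a filter, 847 with variance moderation without trend and robust, 3787 at an adjusted p of 0.05, 2815 with voom on the recovered reads and 517 to 1603 when 1 library was left out. The number of repair genes that fell, 9 in the reported fit, was 5, 5, 18, 15 and 2 to 8 under the same alternatives, and the number that rose, 0 in the reported fit, was 1 at an adjusted p of 0.05, 1 with voom and 0 in the others. Of the further repair genes, 12 were changed in the reported fit, and 4, 5, 30, 21 and 3 to 11 under these alternatives. Dropping the filter nearly doubled the genes tested to 29846, and leaving out a library leaves fewer degrees of freedom.

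Libraries of both groups carry the same replicate numbers. Their deviations from the group means correlated at r = -0.07, 0.08 and 0.08 for replicates 1, 2 and 3. Replicates 2 and 3 correlated best with their own number, and replicate 1 did not. With 3 libraries per group, this does not settle whether libraries of the same number belong together. With the replicate block, 2250 genes were changed, 13 repair genes fell, 0 rose and 18 further repair genes changed. With voom and the replicate block the numbers were 4974, 19, 2 and 40. The pseudocounts of 1 and 0.01, the filter of 1 FPKM and median centring left 9 or 10 repair genes lower.

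Low levels limit what can be said of BRCA2, RAD54B, RAD51B, RAD50 and NHEJ1, and with 3 libraries per group a miss of the threshold does not show that a gene kept its level.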
